A study of Homo sapiens with 6 samples.

Results

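AP-1 transcription factors were examined in KYSE450 cells, a human esophageal squamous cell carcinoma (ESCC) line, and in KEAP1null-KYSE450 cells derived from it. The 10 genes were chosen by their symbols: FOS, FOSB, FOSL1, FOSL2, JUN, JUNB, JUND, BATF3, JDP2 and ATF2. All 10 were found among the 58884 genes of the deposited matrix, each under a single entry, and all 10 passed the filter on low values together with 16701 genes in all. Reads were counted per gene by the authors, with no statement on strand. KYSE450 carries wild-type NRF2. KEAP1null-KYSE450 is a monoclonal line in which KEAP1 was disrupted by CRISPR editing, so a single clone is compared with its parental line, and effects of the deletion, of clonal selection and of later culture cannot be told apart. Both lines were untreated and were grown in RPMI1640 medium with fetal bovine serum, penicillin and streptomycin, with 3 libraries each. Summed over genes, KYSE450 held 56713635, 55911133 and 57380170 normalized counts, and KEAP1null-KYSE450 held 55634532, 54829313 and 55786419. Nothing says that the libraries came from separate cultures, so the p-values measure the spread between these libraries, which may be technical.

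AP-1 is a family of dimeric transcription factors that bind DNA through a basic region and pair through a leucine zipper. JUN proteins can pair with each other or with FOS proteins, FOS proteins need a JUN partner, and the ATF and JDP2 proteins extend the choice of partners and sites. In squamous epithelium AP-1 dimers act on genes of proliferation, migration, matrix breakdown and terminal differentiation, and the family responds quickly to growth factor and stress signals through MAP kinases. The comparison asked how the level of each member, and of the genes around the family, differed between the cells with and without KEAP1.

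The disrupted gene was read first. KEAP1, the adaptor that directs NRF2 to degradation, stood at 5760.4, 5226 and 5146 normalized counts in KYSE450 and at 5737, 4906 and 5317 in KEAP1null-KYSE450. The ranges overlapped, and the log2 fold change (KEAP1null-KYSE450 minus KYSE450, on log2 of the normalized count plus 1) was -0.02 (standard error 0.096, limma adjusted p = 0.9). Its sign changed under 5 of 16 other settings. The mRNA level therefore did not separate the lines, and it does not show whether the transcripts were edited.

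The promoters of the JUN genes are shown because these 3 genes had the smallest adjusted p-values among the members. RefSeq promoter windows (GRCh38.p14; 250 bases before to 50 bases after the start site) were matched for 7 of the 10 members, in 9 windows, and none was matched for FOSL1, BATF3 and ATF2. Both strands were searched for TGACTCA, the AP-1 site of the TPA-response type, for the cAMP-response form TGACGTCA, for TGACATCA, for the 6 bases TGACGT that lie within TGACGTCA, and for TGACNNNGC, the core of the antioxidant response element. Among 35114 windows of 300 bases, TGACTCA was held by 4.95%, TGACGTCA by 1.85%, TGACATCA by 2.61%, TGACGT by 7.98% and TGACNNNGC by 13.3%. The 250 bases before each start site are given 5′ to 3′ in the direction of the gene, with matches to the first 4 of these motifs in capitals.
JUN, chr1:58784048-58784297, minus strand: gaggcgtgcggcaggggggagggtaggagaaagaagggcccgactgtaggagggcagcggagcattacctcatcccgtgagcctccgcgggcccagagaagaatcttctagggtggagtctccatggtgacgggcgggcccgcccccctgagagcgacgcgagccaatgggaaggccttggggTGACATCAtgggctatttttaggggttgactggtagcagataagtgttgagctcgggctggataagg
JUNB, chr19:12791236-12791485, plus strand: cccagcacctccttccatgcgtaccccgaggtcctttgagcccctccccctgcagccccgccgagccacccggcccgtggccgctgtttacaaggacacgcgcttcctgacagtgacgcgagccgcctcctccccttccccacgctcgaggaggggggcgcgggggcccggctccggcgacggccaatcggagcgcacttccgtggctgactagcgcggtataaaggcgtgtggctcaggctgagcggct
JUND, chr19:18281623-18281872, minus strand: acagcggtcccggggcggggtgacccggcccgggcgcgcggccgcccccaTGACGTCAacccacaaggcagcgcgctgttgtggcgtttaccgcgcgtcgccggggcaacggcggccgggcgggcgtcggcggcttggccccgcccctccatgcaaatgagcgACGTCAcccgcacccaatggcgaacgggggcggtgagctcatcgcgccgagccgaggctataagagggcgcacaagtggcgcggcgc
The JUN window held TGACATCA from -67 to -60, counted from the start site. The JUND window held TGACGTCA from -200 to -193 and a further TGACGT, read on the other strand, from -87 to -82. None of the first 4 motifs was found in the JUNB window, which says only that these letters were not in it. TGACNNNGC was found in the window of JUND and of no other matched member.

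In the FOS group, shorter stretches around the matches are shown with the motif in capitals.
FOS, chr14:75278747-75278786, plus strand: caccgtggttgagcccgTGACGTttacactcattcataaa
FOSB, chr19:45467919-45467958, plus strand: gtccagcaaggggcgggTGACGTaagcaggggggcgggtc
FOSL2, chr2:28392775-28392814, plus strand: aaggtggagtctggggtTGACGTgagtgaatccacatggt
FOSL2 near the start site, chr2:28392845-28392872, plus strand: aactcgtgccattgtagTGACTCAtctc
TGACGT lay at a similar distance in these 3 windows, from -64 to -59 in FOS, from -60 to -55 in FOSB and from -66 to -61 in FOSL2, while 1 window of JDP2 held it from -97 to -92. FOSL2 was the only matched member with TGACTCA, from 5 to 11 bases after the start site. A match describes the letters and does not show binding.

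JUN, JUNB and JUND were lower in KEAP1null-KYSE450 in every library and ATF2 was higher in every library, and these 4 passed the test in all 16 other settings. With less support, FOSL1 (13 of 16 other settings) and FOSB (6 of 15) were lower and BATF3 (5 of 15) was higher. FOS, FOSL2 and JDP2 did not pass the test. With an adjusted p under 0.05, 7 of the 10 members passed, 5 lower and 2 higher, against 49.8% of all genes tested, of which 25.5% were lower and 24.3% higher. When a log2 fold change of at least 1 in size was also required, 1 member passed, JUNB, which was lower, against 18.2% of all genes, of which 5.98% were lower and 12.2% higher. The libraries of the lines did not overlap for 7 members, against 57.8% of all genes. The median log2 fold change over the 10 members was -0.35, and over all genes tested it was 0.004. With so many genes called, the count past the adjusted p does not by itself set the family apart. In these bulk libraries, fewer cells of a type and less RNA per cell cannot be told apart. Of the 3044 genes past both thresholds 67.2% were higher in KEAP1null-KYSE450. That share was 51.8% after quantile normalization and 56.2% when the minimum mean was raised to 100.

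**Figure D1:**
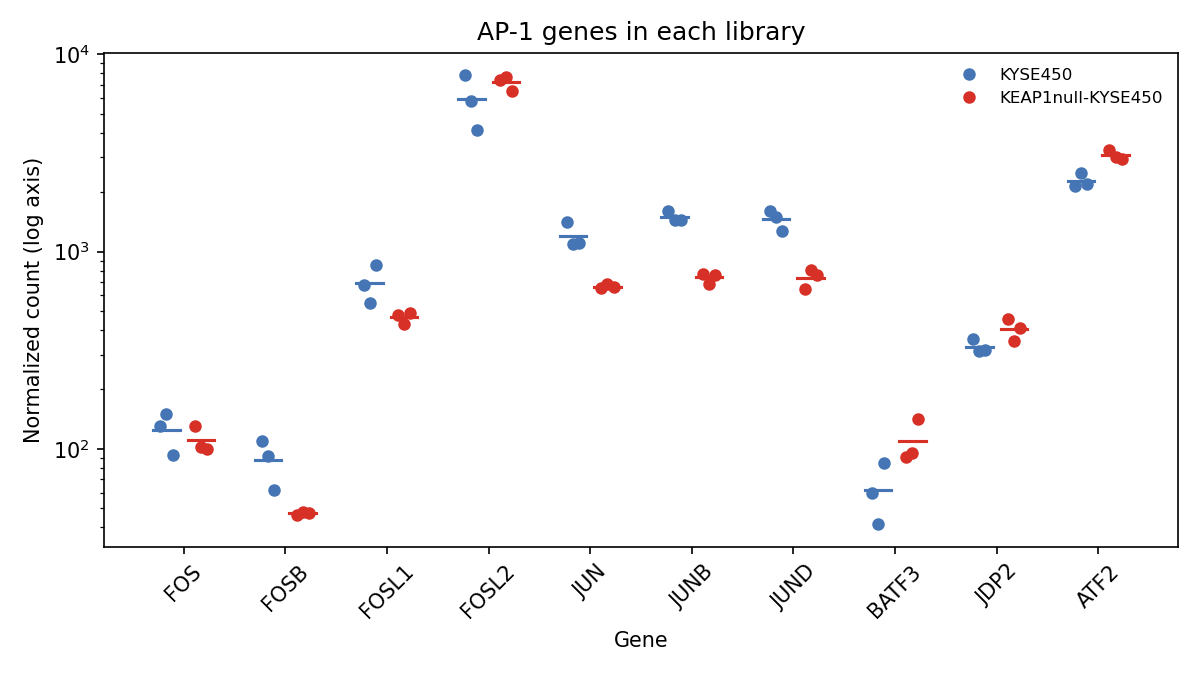
Normalized counts (log axis) of the 10 AP-1 genes, with a point for each library, KYSE450 in blue and KEAP1null-KYSE450 in red, and a short line at the mean of each line's 3 libraries. The red points of JUN, JUNB and JUND lie below all of their blue points, and those of ATF2 lie above.

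In the JUN group, JUN, the founding member and the main partner of the FOS proteins, had normalized counts of 1418, 1091 and 1102 in KYSE450 and 653, 681 and 658 in KEAP1null-KYSE450. The KEAP1null-KYSE450 libraries lay close together and below every KYSE450 library. JUN fell by 0.85 on the log2 scale (standard error 0.127, limma adjusted p = 0.00015 by the Benjamini-Hochberg method). JUNB, which can act against JUN on shared sites, had 1609.6, 1441 and 1449 normalized counts in KYSE450 and 769.6, 684 and 764 in KEAP1null-KYSE450. The lowest KYSE450 library stood well above the highest KEAP1null-KYSE450 library. JUNB fell by 1.02 (standard error 0.1101, limma adjusted p = 1.1e-05). JUND, the member that is expressed most steadily in resting cells, had 1613, 1489.9 and 1267 normalized counts in KYSE450 and 646, 808 and 759.7 in KEAP1null-KYSE450, again with no overlap. JUND fell by 0.98 (standard error 0.129, limma adjusted p = 5.6e-05).

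All 3 JUN genes kept an adjusted p under 0.05 in each of 16 other settings, with log2 fold changes from -0.92 to -0.72 for JUN, from -1.08 to -0.97 for JUNB and from -1.08 to -0.89 for JUND. The fold change cutoff was another matter, since JUNB at -1.02 and JUND at -0.98 lay on either side of it. JUNB was at -0.97 without KYSE450 library 1 and at -0.97 without KEAP1null-KYSE450 library 2. JUND was at -1.08 without KYSE450 library 3, at -1.05 without KEAP1null-KYSE450 library 2 and at -1.003 without KEAP1null-KYSE450 library 3. JUNB lies within the span of HOOK2, which is annotated on the opposite strand. Whether their exons overlap was not examined. Without a stated strand, it is therefore not known whether reads of one are counted in the other. HOOK2 had 2184, 1919.5 and 1745 normalized counts in KYSE450 and 1983, 1760.5 and 1722 in KEAP1null-KYSE450.

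**Figure D2:**
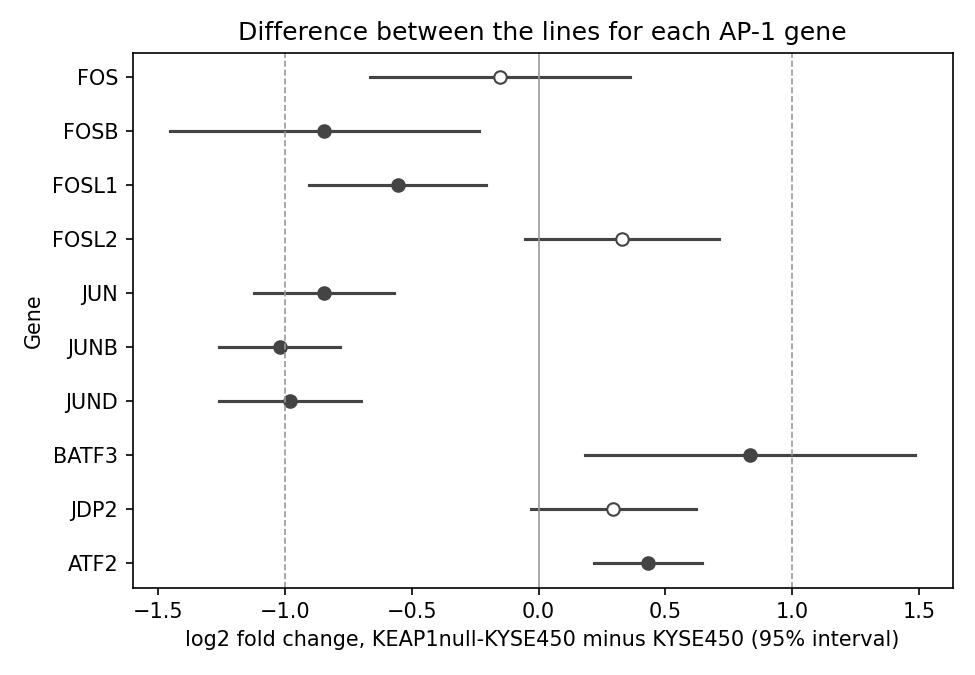
log2 fold change of each AP-1 gene with its 95% interval from limma, KEAP1null-KYSE450 minus KYSE450; filled points had an adjusted p under 0.05, open points did not, and dashed lines mark -1 and 1. JUNB at -1.02 and JUND at -0.98 sit at the left dashed line, and the interval of FOS runs from -0.66 to 0.36.

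In the FOS group, FOS, the immediate-early partner of JUN, had normalized counts of 130.5, 151 and 93.2 in KYSE450 and 131, 102 and 99.9 in KEAP1null-KYSE450. The ranges overlapped (log2 fold change -0.15, standard error 0.236, limma adjusted p = 0.62), and the log2 fold change lay between -0.48 and 0.09 in the other settings, with no call. FOSB, a close relative that is also induced rapidly, had 110.2, 92.0 and 61.5 normalized counts in KYSE450 and 46.1, 47.9 and 47.4 in KEAP1null-KYSE450. All KEAP1null-KYSE450 libraries were lower, while the KYSE450 libraries were spread widely. FOSB fell by 0.84 (standard error 0.281, limma adjusted p = 0.024), but it passed in only 6 of 15 other settings. With quantile normalization it was at -1.28 (adjusted p = 0.0025). Without KYSE450 library 1 its adjusted p was 0.099 and without KYSE450 library 2 it was 0.074. Leaving out KEAP1null-KYSE450 library 1, 2 or 3 gave 0.051, 0.056 and 0.058. FOSB lies within the span of ERCC1, which is annotated on the opposite strand. ERCC1 had 2376, 2339 and 2234 normalized counts in KYSE450 and 2259.8, 2221 and 2416 in KEAP1null-KYSE450, far above FOSB itself. Whether their exons overlap was not examined, so it is not known whether reads of ERCC1 reach the count of FOSB.

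FOSL1 (FRA-1), a FOS protein that lacks the transactivation domain of FOS and is linked to migration of epithelial tumour cells, had 673, 547 and 859 normalized counts in KYSE450 and 477, 429 and 485 in KEAP1null-KYSE450. No KEAP1null-KYSE450 library reached the lowest KYSE450 library. FOSL1 fell by 0.56 (standard error 0.161, limma adjusted p = 0.012) and passed in 13 of 16 other settings. Without KYSE450 library 3, the highest, it was at -0.39 (adjusted p = 0.055), and without KEAP1null-KYSE450 library 2 at -0.50 (adjusted p = 0.055). FOSL2 (FRA-2), the related member with the highest counts of the family, had 7802, 5773 and 4141 normalized counts in KYSE450 and 7426, 7684 and 6469.8 in KEAP1null-KYSE450. KYSE450 library 1 lay above all KEAP1null-KYSE450 libraries and KYSE450 library 3 far below them, so the groups overlapped (log2 fold change 0.33, standard error 0.176, limma adjusted p = 0.14). Without KYSE450 library 3 the difference was 0.10 (adjusted p = 0.58) and without KYSE450 library 1 it was 0.55 (adjusted p = 0.0024), and it was 0.49 (adjusted p = 0.038) after quantile normalization and 0.44 (adjusted p = 0.044) after removal of the trends on GC content and length. Over all 16 other settings the adjusted p of FOSL2 ranged from 0.0024 to 0.58.

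Among the remaining members, ATF2, which pairs with JUN on cAMP-response type sites and is switched on by stress kinases, had 2157, 2489 and 2194 normalized counts in KYSE450 and 3256, 3011 and 2949 in KEAP1null-KYSE450. Every KEAP1null-KYSE450 library was above every KYSE450 library. ATF2 rose by 0.43 (standard error 0.0985, limma adjusted p = 0.003) and passed in all 16 other settings. BATF3, a small family member without a transactivation domain that is best known from dendritic cells, had 59.9, 41.4 and 84.8 normalized counts in KYSE450 and 91.4, 94.8 and 141 in KEAP1null-KYSE450. The groups did not overlap, but the gap between the highest KYSE450 and the lowest KEAP1null-KYSE450 library was small. BATF3 rose by 0.83 (standard error 0.300, limma adjusted p = 0.035), which held in 5 of 15 other settings, and was at 0.44 with quantile normalization and at 0.39 and 0.35 with edgeR and DESeq2 on recovered reads of 4 libraries. Its adjusted p was 0.05, 0.13, 0.057 and 0.16 without KYSE450 library 1, KYSE450 library 2, KEAP1null-KYSE450 library 2 and KEAP1null-KYSE450 library 3. JDP2, a repressor that pairs with JUN and ATF2, had 358, 313 and 318 normalized counts in KYSE450 and 457, 353 and 409.6 in KEAP1null-KYSE450. KYSE450 library 1 lay above the lowest KEAP1null-KYSE450 library (log2 fold change 0.29, standard error 0.150, limma adjusted p = 0.12; 0.18 with quantile normalization).

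GC content moved with the direction of several members. Over the longest transcript it was 69.93% in JUND and 64.86% in JUNB, which were lower, and 36.89% in ATF2, which was higher. After removal of each library's trend on GC content and exonic length, JUN was at -0.76, JUNB at -1.04, JUND at -0.97 and ATF2 at 0.36, all with an adjusted p under 0.05, whereas FOSB at -0.67 (adjusted p = 0.091) and BATF3 at 0.64 (adjusted p = 0.1) no longer passed. FOSL1 was at -0.62 and FOS at -0.16.

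Levels of different genes were compared per kilobase of annotated exon, as a mean over 3 libraries with its SD. In KYSE450 the FOSL2 level was 825 ± 256 (SD, n = 3) normalized counts per kilobase, that of JUNB 819.7 ± 51.9 and that of JUND 755 ± 90.9, and these 3 overlapped. ATF2 at 396 ± 31.6, FOSL1 at 367 ± 83.1 and JUN at 332 ± 51.3 followed and also overlapped. JDP2 at 52.7 ± 3.95, FOS at 39.2 ± 9.14, BATF3 at 24.2 ± 8.48 and FOSB at 15.8 ± 4.42 were at the bottom of the order, where FOS and BATF3, and BATF3 and FOSB, overlapped. In KEAP1null-KYSE450 the order of the upper genes was FOSL2 at 1004 ± 89.3, ATF2 at 534 ± 28.3, JUNB at 404 ± 26.1, JUND at 383 ± 43.2, FOSL1 at 246 ± 16.1 and JUN at 183 ± 4.10, with only JUNB and JUND overlapping. JDP2 at 64.9 ± 8.32, BATF3 at 42.5 ± 10.8, FOS at 34.8 ± 5.47 and FOSB at 8.49 ± 0.165 were again the lowest, with BATF3 and FOS overlapping. Per kilobase, ATF2 thus stood below JUNB and JUND in every KYSE450 library and above both in every KEAP1null-KYSE450 library. Without division by length this change of order was absent, since ATF2 had more normalized counts than JUNB and JUND in every library of both lines.

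The makeup of the family within a library does not depend on how the library was scaled. As a share of the level per length summed over the 10 members, the JUN group (JUN, JUNB and JUND) held 51.8%, 52.9% and 53.2% in KYSE450 and 31.7%, 33.4% and 35.1% in KEAP1null-KYSE450. The FOS group (FOS, FOSB, FOSL1 and FOSL2) held 37.0%, 32.9% and 32.6% in KYSE450 and 45.4%, 45.6% and 42.5% in KEAP1null-KYSE450. Neither share overlapped between the lines. A higher share is not a higher level. The summed level of the FOS group was 1507, 1159.7 and 1074 normalized counts per kilobase in KYSE450 and 1339, 1341 and 1200.4 in KEAP1null-KYSE450, which overlapped, while that of the JUN group was 2107, 1861 and 1753 in KYSE450 and 936, 981 and 993 in KEAP1null-KYSE450, which did not. The share of ATF2 was 9.22%, 12.3% and 11.6% in KYSE450 and 19.2%, 17.8% and 18.1% in KEAP1null-KYSE450, and that of FOSL2 was 26.8%, 22.9% and 17.6% against 35.2%, 36.5% and 32.0%. Of the FOS group, only FOSL2 had a higher share in each KEAP1null-KYSE450 library than in any KYSE450 library. The mean share of FOSL1 was 10.3% in KYSE450 and 8.47% in KEAP1null-KYSE450, with overlap. That of FOSB was lower, at 0.432% and 0.292%, and FOS overlapped. Inside the JUN group the shares stayed near each other, with JUNB at 43.1% ± 1.83 (SD, n = 3) in KYSE450 and 41.7% ± 3.43 in KEAP1null-KYSE450 and JUND at 39.6% ± 2.02 and 39.4% ± 3.48. These shares are descriptions without a test, and with 3 libraries against 3 an exact permutation test could not go below 0.10.

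**Figure D3:**
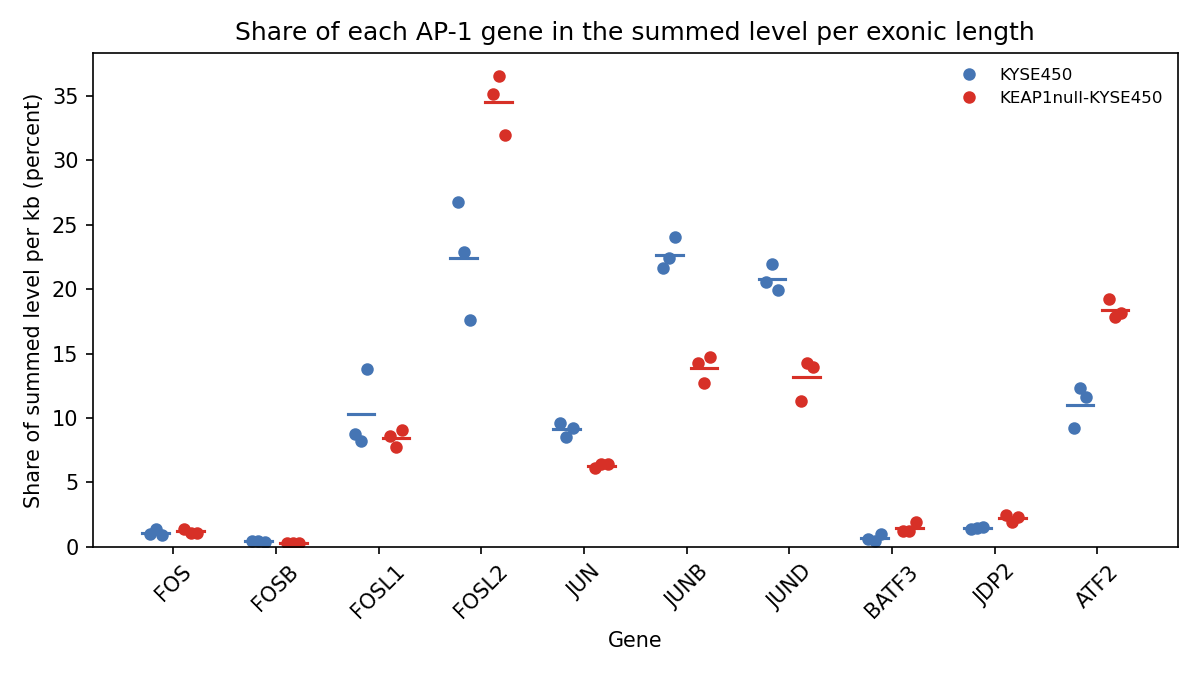
Share (percent) of each AP-1 gene in the level per kilobase of exon summed over the 10 genes, with a point for each library, KYSE450 in blue and KEAP1null-KYSE450 in red, and a short line at the mean of 3 libraries. JUNB and JUND are lower and ATF2 and FOSL2 higher in each KEAP1null-KYSE450 library than in any KYSE450 library.

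Along the chromosomes, the members were set beside the 10 tested genes on each side. FOSB, JUNB and JUND lie on chromosome 19, where the median log2 fold change over 1077 tested genes was -0.15, with 31.3% lower and 13.5% higher at an adjusted p under 0.05. The median over the neighbours was -0.30 for JUNB, -0.25 for JUND and -0.21 for FOSB. JUNB was lower than 18 of its 20 neighbours and JUND than 19 of 20. JUN lies on chromosome 1, where the median was -0.10 and 532 of 1656 tested genes were lower and 339 higher. Its neighbour median was 0.26, with 8 of the 20 higher and 4 lower, from -4.78 to 2.50. ATF2, on chromosome 2, where 27% of the tested genes were higher and 21.9% lower, had a neighbour median of 0.58. Of its 20 neighbours 11 were higher and 1 was lower at an adjusted p under 0.05, and 6 had a log2 fold change below 0. The part of the chromosomal surroundings in the differences was not tested. FOS and JDP2 lie near each other on chromosome 14, at 75278826-75282230 and 75427716-75474111, and BATF, which follows JDP2 there, was listed at 0 in all 6 libraries.

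**Figure D4:**
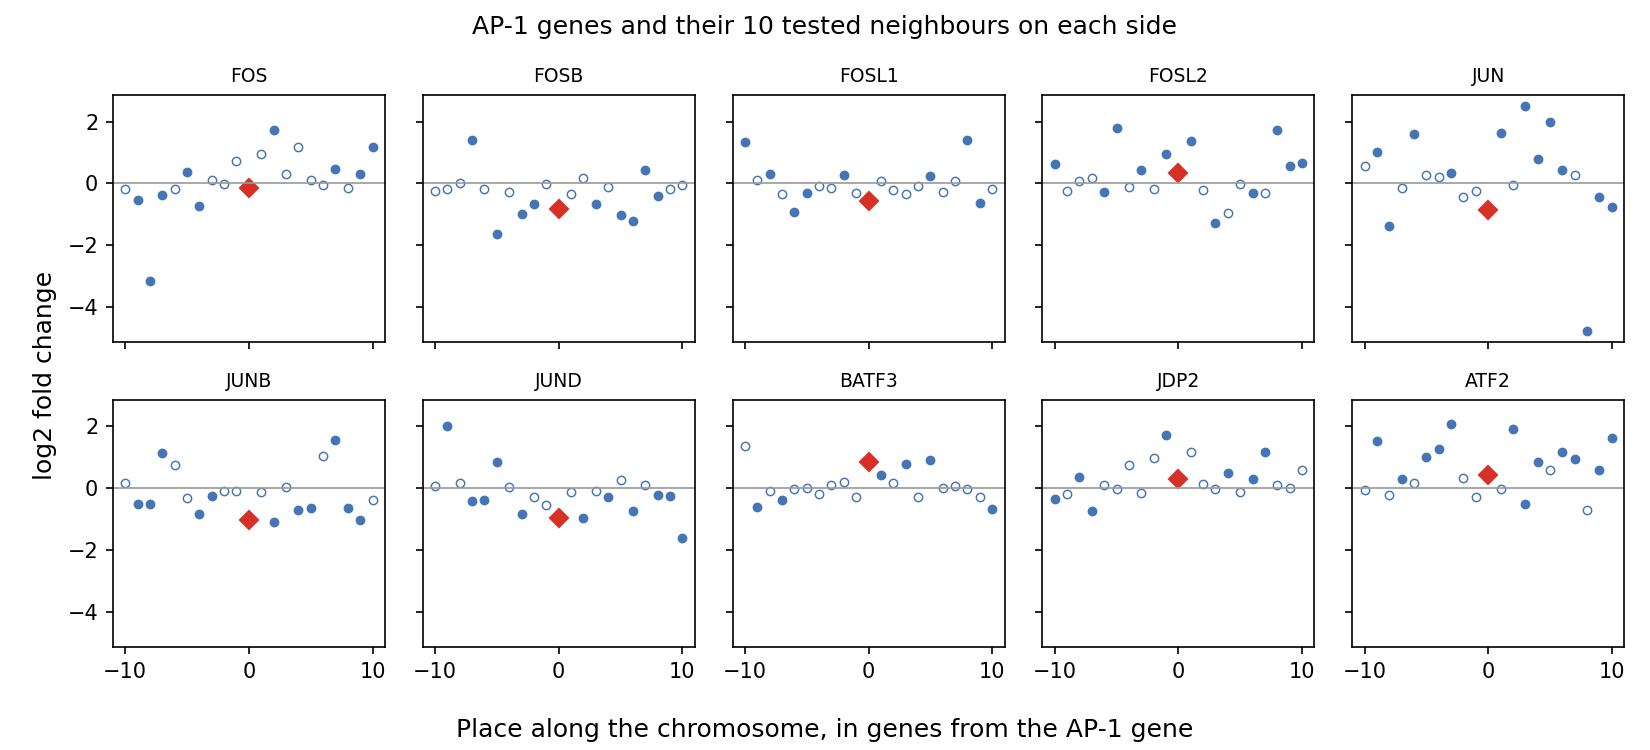
log2 fold change (KEAP1null-KYSE450 minus KYSE450) of each AP-1 gene (red diamond) and of its 10 tested neighbours on each side (circles, filled where the adjusted p was under 0.05), against place along the chromosome counted in genes. JUNB and JUND lie below most of their neighbours, and neighbours of ATF2 are mostly above 0.

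Other bZIP factors that pair with AP-1 proteins or resemble them were counted next. Of 26 tested, 5 were higher (19.2%, beside 24.3% of all genes) and 13 lower (50.0%, beside 25.5%) at an adjusted p under 0.05, with a median log2 fold change of -0.33 beside 0.004 for all genes, and 8 were lower with edgeR on 4 libraries. MAFG, a small MAF protein that pairs with NRF2 and whose gene holds NRF2 sites, had 2686, 2329 and 2292 normalized counts in KYSE450 and 5834, 4763 and 5852 in KEAP1null-KYSE450. MAFG rose by 1.17 (limma adjusted p = 3.4e-06) and CREB5 rose by 1.64. NFE2L3, a relative of NRF2, had 2491, 2232 and 2015 normalized counts in KYSE450 and 581, 343 and 385 in KEAP1null-KYSE450. NFE2L3 fell by 2.39 (limma adjusted p = 3.1e-07), while MAFF and NFE2L1 were both lower at -1.24 and MAFK was lower at -0.77. MAF, named after its values were seen because its counts were low, had 43.9, 43.5 and 33.6 normalized counts in KYSE450 and 1.85, 4.08 and 0 in KEAP1null-KYSE450, too near the floor of 3 reads per library for a fitted fold. NFE2L2, the gene of NRF2 itself, had 11199, 11215 and 10616 normalized counts in KYSE450 and 8072, 7790 and 7980.0 in KEAP1null-KYSE450 and fell by 0.47 (limma adjusted p = 0.00063; 0.056 with edgeR on 4 libraries; -0.27 with quantile normalization). BACH1, a repressor that competes for the same sites, rose by 0.83 (limma adjusted p = 1.5e-05), and ATF3, a stress-induced AP-1 partner, was at -0.31 (limma adjusted p = 0.1).

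Of 25 MAP kinase cascade genes upstream of AP-1, 5 were higher (20%, beside 24.3% of all genes) and 8 lower (32.0%, beside 25.5%), with a median of -0.07. The count of lower genes was 5 without KYSE450 library 1, 5 without KYSE450 library 2, 4 without KEAP1null-KYSE450 library 2, 5 without KEAP1null-KYSE450 library 3, 5 without the mean trend and 4 with edgeR and with DESeq2. MAPK10, the JNK form best known from neurons, had 39.6, 26.3 and 40.1 normalized counts in KYSE450 and 416, 433 and 362 in KEAP1null-KYSE450 and rose by 3.499 (limma adjusted p = 9.7e-08). MAPK11, a p38 form, rose by 1.63. The JNK forms with higher counts, MAPK8 (JNK1) and MAPK9 (JNK2), were lower at -0.33 and -0.50, and these 2 were chosen after their values were seen. Among 15 regulators of the AP-1 genes and proteins, none passed both thresholds; 1 was higher (6.67%, beside 24.3% of all genes) and 4 were lower (26.7%, beside 25.5%) at the adjusted p alone, and the median was -0.12. No regulator was higher without KYSE450 library 2 or 3, without KEAP1null-KYSE450 library 1 or 2, without the mean trend, or with edgeR or DESeq2. The 5 called, named after their values were seen, were MRTFB at 0.35 with overlapping libraries, a cofactor of the serum response factor, SRF itself at -0.67, the ternary complex factor ELK3 at -0.86, the ubiquitin ligase ITCH at -0.60 and the deacetylase SIRT1 at -0.29. SRF and ELK3 are known to act on the FOS promoter, and their part in the level of FOS was not tested.

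Of 24 immediate-early genes outside AP-1, 5 were higher (20.8%, beside 24.3% of all genes) and 8 lower (33.3%, beside 25.5%), with a median of -0.18. EGR1, a zinc finger factor induced with FOS, had 1575, 1178 and 1283 normalized counts in KYSE450 and 3349.5, 3195 and 3264 in KEAP1null-KYSE450 and rose by 1.29 (limma adjusted p = 2.1e-06), and KLF10 and CCN2 rose by 1.15 and 1.31. IER3, an apoptosis regulator, had 17009.6, 16482 and 13975 normalized counts in KYSE450 and 3014.6, 2788 and 2769 in KEAP1null-KYSE450 and fell by 2.46 (limma adjusted p = 1.3e-09). KLF4, a factor of squamous differentiation, fell by 1.60, and GADD45B, CCN1 and IER5 were lower at -1.32, -1.30 and -1.02, and IER5 kept the fold change cutoff in 9 of 16 other settings.

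At an adjusted p under 0.05, 16 of 22 tested genes known to carry AP-1 sites were lower (72.7%, beside 25.5% of all genes). Another 1 was higher (4.55%, beside 24.3%), and 5 did not pass. The list held 27 genes, with FOSL1 and JUN among them. Both of these members were among the 16 lower genes, so their own values enter this count. With the fold change cutoff as well, 12 were lower (54.5%, beside 5.98% of all genes) and 0 higher (beside 12.2%), and the median was -1.25. The list as a group was not tested. Across the other settings the count of 12 lay between 9 and 13. The single gene that was higher, PLAU, encoding the urokinase-type protease, rose by 0.57. The list was read from textbook knowledge with results of these data already known, and nothing here shows that AP-1 acted on any of its genes.

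MMP13 (collagenase 3) had 2601, 2396 and 2749 normalized counts in KYSE450 and 0, 6.12 and 1.01 in KEAP1null-KYSE450. The KEAP1null-KYSE450 values are too near the floor for a fitted fold. MMP1 (interstitial collagenase) had 204, 280.0 and 226 normalized counts in KYSE450 and 0.923, 0 and 0 in KEAP1null-KYSE450, all under the floor of 3 reads, so the fitted fold depends on the pseudocount and is not given. SPRR1B, a precursor of the cornified envelope, had 168, 118 and 160.4 normalized counts in KYSE450 and was listed at 0 in all 3 KEAP1null-KYSE450 libraries, and against a floor of 3 reads per library it was at least 50.4-fold lower. SPRR1A had 93.0, 67.7 and 97.0 normalized counts in KYSE450 and 2.77, 3.06 and 1.01 in KEAP1null-KYSE450, which are at the floor or below it, and no fitted fold is given for it either. MMP10 (stromelysin 2) had 469.5, 549 and 444 normalized counts in KYSE450 and 19.4, 22.4 and 16.1 in KEAP1null-KYSE450 and fell by 4.59 (limma adjusted p = 7.6e-09). MMP1, MMP10 and MMP13 lie together on chromosome 11, and SPRR1A and SPRR1B on chromosome 1, so these genes are not independent examples.

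Promoter windows were matched for 17 of the 27 listed genes, in 19 windows, and 8 of these genes held TGACTCA in them, namely CXCL8, IVL, LAMA3, LORICRIN, MT2A, PLAUR, SPRR1A and SPRR1B. Because the list was made from genes with known AP-1 sites, that number describes the list and is no result. Each of the 6 of them that were tested was lower. Matched genes without TGACTCA were lower too, among them CD44 at -0.89, HMGA1 at -1.18 and JUN at -0.85. Also without it, PLAU was higher and TIMP1 did not pass. The motif therefore does not mark out the lower genes of the list. Stretches from the 6 genes are shown, with TGACTCA or its reverse complement TGAGTCA in capitals.
PLAUR, chr19:43670332-43670372, minus strand: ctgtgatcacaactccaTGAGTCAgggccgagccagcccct
CXCL8, chr4:73740415-73740455, plus strand: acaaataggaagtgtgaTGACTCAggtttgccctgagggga
SPRR1A, chr1:152983956-152983996, plus strand: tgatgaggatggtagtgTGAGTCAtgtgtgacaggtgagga
SPRR1B, chr1:153031045-153031085, plus strand: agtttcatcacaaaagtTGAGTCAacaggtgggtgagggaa
LAMA3, chr18:23872878-23872918, plus strand: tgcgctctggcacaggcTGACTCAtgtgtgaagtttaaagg
LAMA3, nearer the start site, chr18:23872934-23872974, plus strand: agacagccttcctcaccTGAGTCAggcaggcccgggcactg
MT2A, chr16:56608463-56608503, plus strand: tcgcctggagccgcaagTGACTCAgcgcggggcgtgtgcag
PLAUR, the urokinase receptor, was at a log2 fold change of -2.73, CXCL8, the chemokine interleukin 8, at -2.003, LAMA3, a chain of laminin-332, at -2.13 and MT2A, a metallothionein, at -0.62, with limma adjusted p-values of 1.5e-06, 1.1e-06, 9e-07 and 0.00016. LAMA3 held the motif at -125 to -119 and again at -69 to -63. In MT2A the motif continues into TGACNNNGC, so both motifs cover the same bases there.

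**Figure D5:**
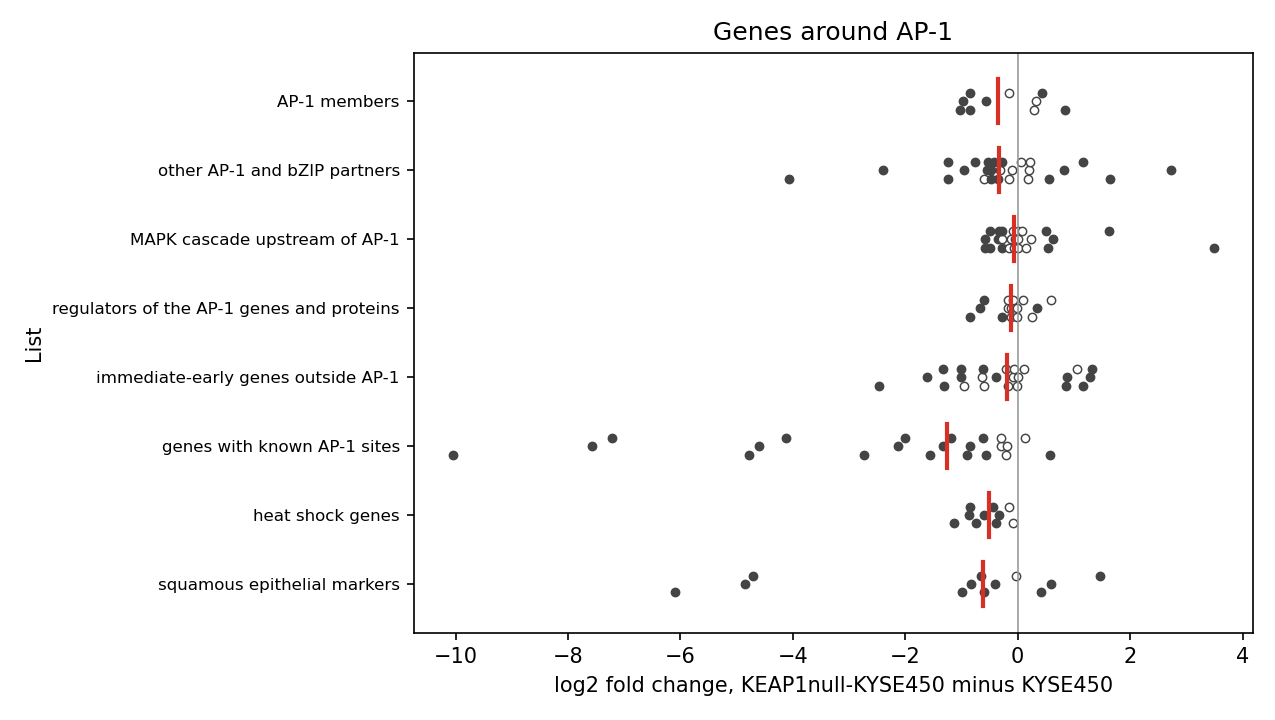
log2 fold change (KEAP1null-KYSE450 minus KYSE450) of the tested genes of each list, with filled points at an adjusted p under 0.05, a red line at the median of the list and a grey line at the median of all genes tested. The median of the genes with known AP-1 sites is -1.25, and that of the AP-1 members is -0.35. The places of genes near the floor depend on the pseudocount.

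Other measures also separated the lines, and their part in the AP-1 results was not tested. Of 10 heat shock genes 8 were lower (80.0%, beside 25.5% of all genes) and none higher (beside 24.3%), with a median of -0.52, and 5 were lower with edgeR on 4 libraries. HSP90AA1, the most abundant of them, had 309343, 305950 and 325624 normalized counts in KYSE450 and 154137, 133126 and 141726 in KEAP1null-KYSE450, and the list summed to 692483, 687878 and 750825 against 441794, 411054 and 425525. Mitochondrially encoded genes held 2.04%, 2.07% and 2.83% of the summed normalized counts in KYSE450 and 4.41%, 3.92% and 4.65% in KEAP1null-KYSE450. Of 12 squamous epithelial markers 8 were lower (66.7%, beside 25.5% of all genes) and 3 higher (25.0%, beside 24.3%), with a median of -0.62, and 1 was higher without the mean trend. The most abundant, KRT5, rose by 1.46 (0.87 with quantile normalization, under the fold change cutoff), while KRT14, KRT17 and KRT6A were lower at -6.09, -4.85 and -4.70. The squamous list summed to 548089, 462651 and 418385 normalized counts in KYSE450 and to 786167, 648558 and 630893 in KEAP1null-KYSE450, so squamous markers were present in both lines. KRT5 alone held 250359, 199564 and 174377 of these in KYSE450 and 648677, 536519 and 519548 in KEAP1null-KYSE450. The higher sum therefore does not describe the list, of which 8 markers were lower.

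Summed over each list, markers of other cell types were far below the squamous ones. This did not hold for each marker, since KRT14 averaged 34.5 normalized counts in KEAP1null-KYSE450 and the fibroblast marker COL1A1 388. Of 7 fibroblast markers 1 was tested, COL1A1, the most abundant, which fell by 0.85, and the list summed to 853.5, 677 and 624 normalized counts in KYSE450 and 352.5, 409 and 437 in KEAP1null-KYSE450. Of 4 endothelial markers 2 were tested: VWF, the most abundant, did not pass (log2 fold change 0.25, limma adjusted p = 0.54), and CDH5 had 10.7, 20.2 and 28.9 normalized counts in KYSE450 and 1.85, 3.06 and 1.01 in KEAP1null-KYSE450, at the floor or below it, and with DESeq2 no endothelial marker was lower. PECAM1 was listed at 0 in every library. The endothelial list summed to 57.8, 74.8 and 64.3 in KYSE450 and 41.5, 59.1 and 68.6 in KEAP1null-KYSE450. None of the 6 leukocyte markers was tested, and they summed to between 1.9 and 19.2 normalized counts per library. LYZ was the most abundant over both lines together, with a mean of 7.77 in KEAP1null-KYSE450. In KYSE450 its mean was 1.01, below PTPRC at 3.05 and CD14 at 2.72.

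The genes whose profile over the 6 libraries was most like that of JUNB, by root mean square difference of log2 values centred on each gene's mean among 12340 genes, were KIF2C at 0.0214, MYBL2 at 0.0275, MRM1 at 0.0346, PFKFB2 at 0.0478 and JMJD6 at 0.0492. The log2 fold change of KIF2C was -1.0007 and that of PFKFB2, the smallest in size among them, was -0.97. Because these genes were chosen for a profile like that of JUNB, fold changes near that of JUNB follow from the choice and are no result.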

How the data were processed

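Normalized counts of 3 KYSE450 and 3 KEAP1null-KYSE450 libraries were analysed. The authors deposited a signal per gene and library, read counts divided by a size factor, after quality filtering (FastQC 0.11.5, cutadapt 1.12), alignment to hg38 with STAR 2.6.90c and counting with featureCounts 1.5.1, as their processing notes and methods name them. The strand setting was not given in the sources used here. The columns of other samples numbered 0.

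Differences were tested with limma 3.58.1 (R 4.3.3; lmFit, then eBayes with a mean trend), after 1 was added to each normalized count and log2 was taken, over the 16701 genes whose mean reached 10, two-sided, with Benjamini-Hochberg adjustment over all of them. On this scale the change of low genes is understated. Members and lists were chosen with earlier results of these data known. Besides KEAP1, all members, NFE2L2, MAFF, MAFG, MAFK, BACH1 and ATF3, the named genes were up to 5 in each direction per list past both thresholds (adjusted p under 0.05, absolute log2 fold change of at least 1) whose higher line averaged 50 or more, and the 5 genes most like the most changed of the called members averaging 100 or more. Genes outside that rule were chosen after their values were seen, and 1 gene the rule names is not reported here. For 4 libraries 100% of the values gave whole reads (within 0.1), 53027359 to 61543442 in all, which were tested with edgeR 4.0.16 and DESeq2 1.42.0, calling 2800 and 2473 genes past both thresholds. In the other 2 libraries a read was worth too nearly 1 for recovery to be accepted. The floor of 3 reads was 2.77 to 3.21 normalized counts per library and covers counting error only.

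As alternatives, 0.1 or 10 was added before the logarithm, the filter was dropped or raised to 100, and the fit was repeated with equal totals, quantile normalization, no trend, each library left out, GC content and length trends removed, and both count tests. The settings were also applied to the list counts after the data were seen. Annotation lengths, positions and GC content came from gencode v44 on hg38. The tests were checked on simulated data, and the outcome is not given here. Python 3.11.15 and matplotlib drew the figures.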

Additional observations from a re-analysis of the deposited data

How the results depend on the processing

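No paired analysis was possible because the columns carry no replicate numbers. Of the named genes' values under other settings, judged by direction and adjusted p alone, 618 stayed on the same side of 0.05, 23 no longer passed it, 4 came to pass it and 7 changed sign. With the fold change cutoff as well, IER5 passed in 9 of 16 other settings, JUNB in 12 and KRT5 in 15, while JUND came to pass in 3, FOSB in 2 and BATF3 in 1. Those that changed sign were KEAP1 at 0.0156 with equal totals, 0.135 with quantile normalization, 0.117 with GC content and length trends removed, and between -0.0725 and 0.0403 with a library left out, above 0 without KYSE450 library 1 and without KEAP1null-KYSE450 library 2, and FOS at 0.0942 with edgeR and 0.0553 with DESeq2; neither gene was called in any setting. The cause was not tested.

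Members past both thresholds numbered 1 in the main analysis, 0 with equal totals, 7 with no fold change cutoff and 0 to 4 with a library left out. Members past the adjusted p numbered 7, and 4 to 6 with a library left out. JUNB, the 1 member past both thresholds, was at -0.99 with equal totals and also at -0.99 with quantile normalization, where FOSB passed in its place. All genes past both thresholds numbered 3044, and 1558 with a mean of at least 100, where fewer genes were tested. All genes past the adjusted p numbered 8311, and 5481 with edgeR and 5144 with DESeq2, which used 4 libraries.

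The JUN group's share was 52.6% in KYSE450 and 33.4% in KEAP1null-KYSE450. With the longest transcript as length it was 49.3% and 30.4%, and without length 30.7% and 15.8%. The FOS group's share without length was 49.4% in KYSE450 and 57.6% in KEAP1null-KYSE450. The JUN group's share was lower and the FOS group's share higher in KEAP1null-KYSE450 on each of these scales. Per kilobase of exon, FOSL2 was the only gene of the FOS group whose share was higher without overlap. These are shares, and the summed level of the FOS group overlapped between the lines. FOSB and BATF3, whose calls were lost most often, had the lowest counts of the family.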
